A study of Mus musculus with 2 samples.

Results

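Checkpoint-high CD8 T cells were 598 of the 10720 cells measured in MC38 tumours, 225 of 4472 cells in the DFMO library and 373 of 6248 cells in the water library. They were chosen by raw unique molecular identifiers (UMIs, each standing for 1 captured transcript). A cell needed at least 1 UMI over Cd3d, Cd3e and Cd3g, at least 2 over Cd8a and Cd8b1, none of Cd79a, at most 2 of Lyz2, at least 2 over Pdcd1, Lag3 and Havcr2, and at most 3 over the cell cycle genes Mki67, Top2a, Birc5 and Cdk1. MC38, a mouse colon carcinoma line, was grown in the back of C57BL/6 mice. Mice of the DFMO group were gavaged with DFMO and mice of the water group with water, from 7 days after the tumour cells were given and for 14 days. Cells of the tumours of 4 mice per group were mixed after a Ficoll step and made into 1 single-cell 5′ library per group, so that no value below has a replicate and no difference could be tested. All intervals are 95% intervals that cover counting error only.

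CD8 T cells recognise peptides on MHC class I through the T cell receptor and kill with perforin and granzymes. In tumours, where antigen persists, such cells keep the inhibitory receptors PD-1 (Pdcd1), LAG-3 (Lag3) and TIM-3 (Havcr2) on their surface, a state called exhaustion that is tied to the transcription factor TOX. Progenitors of this state keep TCF-1 (Tcf7) and Slamf6. DFMO blocks ornithine decarboxylase (Odc1), whose product putrescine is the precursor of the polyamines spermidine and spermine.

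The label was checked against 6 markers. The rule fixed the presence of Cd8a or Cd8b1 and of the 3 inhibitory receptors, and their levels are a description. Pdcd1 (chromosome 1, 94038305 to 94052553, mm10) had 849 UMIs per 1000000 UMIs of the members (CPM) in DFMO and 763 CPM in water. Lag3 (chromosome 6, 124904361 to 124911705) had 971 CPM in DFMO and 712 CPM in water. Havcr2 (chromosome 11, 46454935 to 46481255) had 186 CPM in DFMO and 139 CPM in water. Cxcr6, a chemokine receptor of tissue-resident T cells that the rule did not use, was seen in 208 of 225 DFMO members and 336 of 373 water members. Gzmf, a granzyme gene that the rule also did not use, was seen in 32 DFMO members and 58 water members, and so marked a minority of the cells. Pdcd1 had a UMI in 88.9% of DFMO members and 87.1% of water members, whereas Havcr2 had one in 47.6% of DFMO members and 36.2% of water members. In B cells of the same libraries, which should lack these receptors and had median depths of 1776.5 UMIs in DFMO and 1610 UMIs in water, Havcr2 had a UMI in 0.133% of DFMO cells and 2.67% of water cells.

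Members differed in how many checkpoint UMIs they carried and how deeply they were sequenced. DFMO members had a median of 8 UMIs over the 3 receptors (range 2 to 40) and water members a median of 6 (range 2 to 31). All 3 receptors were seen together in 95 DFMO members (42.2%) and 103 water members (27.6%). DFMO members were also deeper, with a median of 4351 UMIs in DFMO and 3416 in water. After each member was thinned to 1000 UMIs, Havcr2 was seen in 37 of 224 DFMO members (16.5%) and 52 of 371 water members (14.0%). At the edge of the rule, 18 DFMO members and 59 water members had exactly 2 checkpoint UMIs, and 27 DFMO cells and 73 water cells of the gate just outside it had 1. The members with exactly 2 carried Cxcr6 with 752 CPM in DFMO and 604 CPM in water, and the cells with 1 carried it with 459 CPM in DFMO and 614 CPM in water.

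Facts of the libraries bear on what follows. The DFMO library held 23588037 UMIs and the water library 59748244, with median depths over all cells of 2232 UMIs in DFMO and 6475 in water, the reverse of the order among the members. No mitochondrial and no ribosomal protein gene is in the matrix. The libraries shared 37 barcode sequences, carried by 1 DFMO member and 4 water members. Among the markers of other lineages, Ms4a1, which the rule did not use, was at 0 in the members of both libraries, and Cd4, Foxp3 and Cd40lg together gave 26 UMIs in DFMO and 26 UMIs in water. The natural killer markers Ncr1, Klrb1c, Klra8 and Klra4 together gave 15 UMIs in 5 DFMO members and 70 UMIs in 22 water members. The B cell markers gave 64 UMIs in 34 DFMO members and 42 UMIs in 29 water members, most of them from Ighm with 57 in DFMO and 39 in water. The dendritic cell markers gave 103 UMIs in 20 DFMO members and 161 UMIs in 18 water members, most of them from Ccr7 with 98 in DFMO and 141 in water. The part of these cells in the results was not tested. Of matrix and tumour RNA, 6 genes (Col1a1, Col1a2, Col3a1, Sparc, Krt8 and Krt18) gave 8 UMIs in DFMO members and 905 UMIs in water members. Of these 6 genes Col1a2 and Krt8 were at 0 in both libraries. Few cells carried nearly all of it. In all, 10 water members and 0 DFMO members had 5 or more such UMIs, while the other members had at most 1 in DFMO and at most 3 in water. Those 10 cells had a median of 16211.5 UMIs and made up 10.6% of all UMIs of the water members, and the doublet caller Scrublet marked 3 of them. Ratios below are therefore given for all members and, where the value differs in its call, without these 10 cells.

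Checkpoint-high cells were a smaller share of the CD8 cells in DFMO than in water. They made up 225 of 709 non-cycling CD8 gate cells in DFMO (31.7%, interval 28.3 to 35.3) and 373 of 630 in water (59.2%, interval 55.3 to 63.1). The remainder differed in kind. Cells under 2 checkpoint UMIs without Gzmk but with UMIs of naive genes such as Ccr7, Lef1 and Dapl1 (2 or more together) were 404 in DFMO and 63 in water. Checkpoint-low cells with Gzmk, a granzyme of memory-like cells, were 18 in DFMO and 91 in water. Without the cells with naive genes, checkpoint-high cells were 73.8% of the gate in DFMO (interval 68.5 to 78.6) and 65.8% in water (interval 61.7 to 69.7), with overlapping intervals. Cells with naive genes were defined only among checkpoint-low cells, so this share leaves out non-members alone. Of all cells, they were 5.03% in DFMO and 5.97% in water. Cells that met the receptor rule but had more than 3 cell cycle UMIs were 56 in DFMO (19.9% of all checkpoint-high cells) and 114 in water (23.4%). B cells (2 or more Cd79a UMIs) numbered 1508 in DFMO and 75 in water, and their part in the share of cells with naive genes was not tested. Gate cells had median depths of 2543 UMIs in DFMO and 2904 UMIs in water, and, thinned to 1000 UMIs per cell, 19.5% of gate cells in DFMO and 34.9% in water met the rule.

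**Figure D1:**
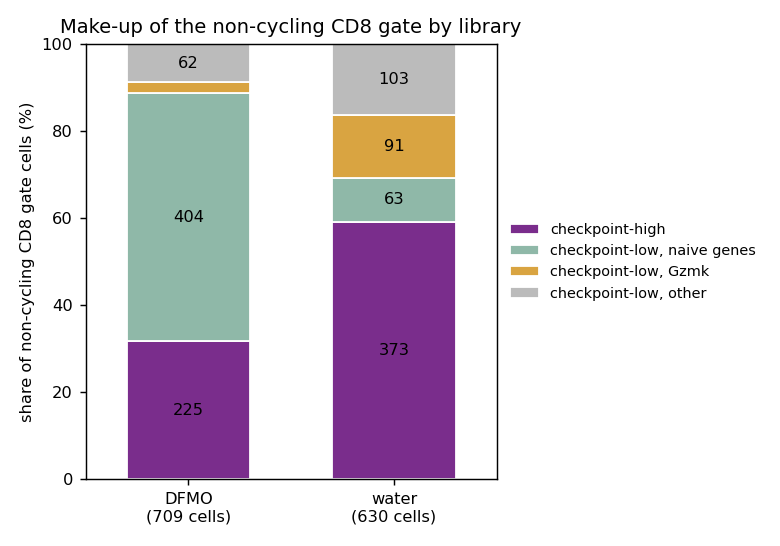
Make-up of the non-cycling CD8 gate. Bars give the share of gate cells (%) in the DFMO library (709 cells) and the water library (630 cells), with cell numbers printed where they fit. The checkpoint-high part is 225 cells in DFMO and 373 in water, and the naive-gene part is 404 cells in DFMO and 63 in water.

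Among 3927 genes with at least 100 UMIs over both libraries, 131 were at least 1.5-fold higher in DFMO members (3.34% of genes tested) and 162 at least 1.5-fold lower (4.13%). Without the 10 cells with matrix or tumour RNA, 96 of 3707 genes were higher (2.59%) and 74 were lower (2.00%). With cells that also carried MHC class II RNA left out, 88 of 3630 were higher (2.42%) and 73 lower (2.01%). The median log2 ratio of all genes was -0.0048 over all members and -0.016 without the 10 cells. The 15 genes lowest in DFMO over all members, ranked by the upper bound of the interval, included Fn1 (fibronectin), Col3a1 (a collagen), Sparc and Dcn, all genes of matrix and stroma, and H19, and also Cd81, Ctsl, Cd34 and Ly6c1. The log2 ratio of Col3a1 was -6.73 with the 10 cells and -1.31 (interval -3.39 to 0.38) without them. Col3a1 and Sparc are among the genes by which these cells were chosen, so this change was fixed in advance. Without the 10 cells, the interval stayed below 0 for Cd81, at -2.47 (interval -3.66 to -1.45), for Fn1, at -2.52 (interval -5.69 to -0.42), and for Ctsl, at -1.25 (interval -2.44 to -0.18). With the cells with MHC class II RNA left out as well, the interval held 0 for Cd81, at -1.12 (interval -2.75 to 0.29), and for Ctsl, at -0.42 (interval -1.88 to 0.93). The 10 cells also moved the ratios of T cell genes. Cd3g, a subunit of the receptor's CD3 complex, had a log2 ratio of DFMO over water of 0.12 with them and -0.03 without them.

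Of 12 inhibitory receptor genes tested, 0 were past 1.5-fold in either direction, beside 3.34% higher and 4.13% lower of all genes tested, with a median log2 ratio of 0.22 (0.06 without the 10 cells). The 12 include Pdcd1, Lag3 and Havcr2, which chose the members, and nothing is read from the count. Ctla4, which competes with CD28 for its ligands, had 234 CPM in DFMO and 166 CPM in water, a log2 ratio of 0.49 (interval 0.24 to 0.75). Tigit had 520 CPM in DFMO and 506 CPM in water, a log2 ratio of 0.04 (interval -0.12 to 0.20). Cd160 had 127 CPM in DFMO and 154 CPM in water, and its ratio of -0.28 (interval -0.59 to 0.03) was the lowest of the 12. Entpd1, which encodes the surface enzyme CD39, had 136 CPM in DFMO and 109 CPM in water.

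Of 16 transcription factors tied to exhaustion and residency, 3 were past 1.5-fold higher in DFMO and 0 lower, with a median log2 ratio of 0.37, beside 3.34% higher among all genes tested. Without the 10 cells 1 was higher and the median was 0.25, beside 2.59% of all genes. Tox (chromosome 4, 6686353 to 6991557) had 222 CPM in DFMO and 138 CPM in water, a log2 ratio of 0.69 (interval 0.42 to 0.95), and of 0.54 without the 10 cells, which is under the fold used. Zfp683, which encodes Hobit, a factor of tissue-resident cells, had 77.8 CPM in DFMO and 39.4 CPM in water, a ratio of 0.98 (interval 0.49 to 1.47). After thinning and a new choice of members, the ratio of Zfp683 was -1.31 over 20 UMIs (interval -3.35 to 0.32). Among the first members after thinning, Zfp683 was seen in 17 of 224 in DFMO and 16 of 371 in water. Nfatc1, a factor activated by receptor signalling, had 147 CPM in DFMO and 95.1 CPM in water, a ratio of 0.63 that was 0.50 without the 10 cells. Nr4a2, Bhlhe40 and Hif1a had ratios of 0.40, 0.36 and 0.39, and Id2, Tbx21 and Runx3 lay between 0.08 and 0.14. Genes of progenitor cells were scarce: Tcf7 had 19 UMIs in DFMO members and 13 in water members, and Slamf6 had 35 UMIs in DFMO members and 12 in water members.

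Cytotoxic genes were abundant in both libraries, and the largest ratio rested on few cells. Of 17 tested, 3 were past 1.5-fold higher in DFMO and 1 lower, with a median of 0.12, beside 3.34% higher and 4.13% lower of all genes tested. Without the 10 cells 2 were higher and 1 lower, with a median of -0.02, beside 2.59% and 2.00% of all genes. Prf1, which encodes perforin, had 1049 CPM in DFMO and 898 CPM in water, and Nkg7, a granule membrane protein, had 5467 CPM in DFMO and 5497 CPM in water. Gzmb, the main granzyme of effector cells, had 2727 CPM in DFMO and 2156 CPM in water, a log2 ratio of 0.34 (interval 0.27 to 0.41). Gzmf (chromosome 14, 56205263 to 56211417) had 1714 CPM in DFMO and 651 CPM in water, a ratio of 1.40 (interval 1.29 to 1.51). Of its UMIs, 813 of 1874 in DFMO came from 1 cell, and 109 of 1040 in water came from 1 cell. With the highest cell of each library left out the ratio was 0.74, and with every cell weighted equally it was 0.39. Its share of members was alike, 14.2% in DFMO and 15.5% in water, and 11.6% in DFMO and 11.3% in water after thinning. Gzmd was seen in 11 DFMO members and 20 water members, with 330 CPM in DFMO and 175 CPM in water, and 38.2% of its 31-base stretches also occur in other genes, mainly Gzme. Its log2 ratio was 0.91, and -0.90 after thinning and a new choice of members (interval -1.93 to 0.04). Gzma, seen in 5 DFMO members and 9 water members, had 75.0 CPM in DFMO and 151 CPM in water, with 76.8% of the DFMO UMIs and 49.0% of the water UMIs in 1 cell. Its log2 ratio of -1.01 was 0.84 after thinning and a new choice of members (interval -0.15 to 1.84). Gzmk had 224 CPM in DFMO and 136 CPM in water, a ratio of 0.72 (interval 0.45 to 0.99) that was 0.58 without the 10 cells. Gzmc, at 471 CPM in DFMO members and 584 CPM in water members, also reached 50.4 CPM in DFMO B cells and 194 CPM in water B cells, and the part of free RNA in its level was not tested. The log2 ratio of Gzmc in members was -0.31, and 0.25 in members with no cell cycle UMI.

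Chemokines and cytokines split into genes higher and genes lower in DFMO. Of 14 tested, 2 were past 1.5-fold higher and 4 lower, beside 3.34% higher and 4.13% lower of all genes tested. Without the 10 cells 0 were higher and 4 lower, beside 2.59% and 2.00% of all genes. Ccl4 and Ccl3, inflammatory chemokines of activated T cells, were higher in DFMO. Ccl4 had 4750 CPM in DFMO and 3084 CPM in water, a log2 ratio of 0.62 (interval 0.57 to 0.68), and 0.50 without the 10 cells. Ccl3 had 1513 CPM in DFMO and 988 CPM in water, a ratio of 0.62 (interval 0.51 to 0.72), and 0.49 without them. Ifng, the cytokine interferon gamma, had 1076 CPM in DFMO and 764 CPM in water, a ratio of 0.49 (interval 0.38 to 0.61), and Ccl5 had 6620 CPM in DFMO and 4584 CPM in water, a ratio of 0.53. In the other sets of CD8, B and myeloid cells, where it could be given, the ratio lay below 0, between -3.67 and -0.26 for Ccl3, between -3.27 and -0.02 for Ccl5 and between -2.30 and -0.18 for Ifng. The ratio of Ccl4 was above 0 in 2 of the other 6 sets, over a range of -2.26 to 0.88. The differences from the members were not tested. Xcl1 (chromosome 1, 164931644 to 164935527), which attracts cross-presenting dendritic cells, was lower in DFMO. It had 177 CPM in DFMO and 610 CPM in water, a ratio of -1.78 (interval -2.01 to -1.56), and after thinning it was seen in 14 of 224 DFMO members and 51 of 371 water members. Its ratio was below 0 in 5 of the other 6 sets too, over a range of -2.67 to 0.79. Unthinned, 12.4% of DFMO members and 22.3% of water members had a UMI of it, against 0.995% of DFMO B cells and 1.33% of water B cells. Ccl1, a ligand of CCR8, had 20.1 CPM in DFMO and 151 CPM in water, a ratio of -2.91 (interval -3.61 to -2.27), and was at 0 in B cells of both libraries. Spp1, which encodes osteopontin, had 263 CPM in DFMO and 470 CPM in water, a ratio of -0.83 (interval -1.04 to -0.64). In myeloid cells, which also make osteopontin, Spp1 had 152 CPM in DFMO and 417 CPM in water.

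**Figure D2:**
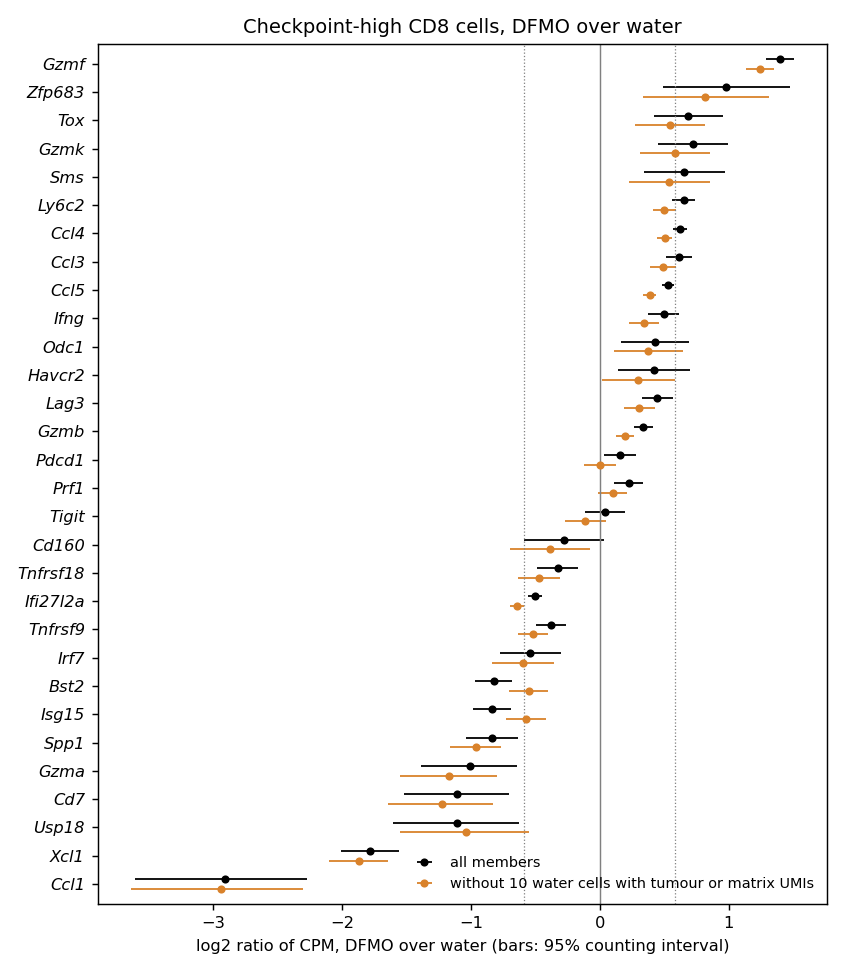
Log2 ratio of CPM, DFMO over water, for 30 genes in checkpoint-high CD8 cells. Black points use all members and orange points leave out 10 water cells with matrix or tumour RNA, with bars for the 95% counting interval, and dotted lines mark 1.5-fold. Ccl1 and Xcl1 are lowest at -2.91 and -1.78 with all members, Gzmf is highest at 1.40, and most orange points lie left of the black ones.

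The 2 ends of the ratio also held genes that differed in the same direction in other cells. Lars2, a mitochondrial tRNA synthetase, had 844 CPM in DFMO and 438 CPM in water, a log2 ratio of 0.95. It was also higher in DFMO, by 0.11 to 0.82, in the other 6 sets of cells compared: cycling checkpoint-high cells, the 3 checkpoint-low sets, B cells and myeloid cells. Hypk and Rnf44, with ratios of 1.40 and 1.33, were higher in DFMO in all 6 too. The MHC class II genes H2-Eb1, H2-Ab1 and H2-Aa owed their place to single cells: 96.7% of the H2-Eb1 UMIs in DFMO members and 76.3% in water members came from 1 cell, and without the highest cell of each library the ratio was -1.83. Gclm, a subunit of the enzyme that starts glutathione synthesis, had 75.0 CPM in DFMO and 185 CPM in water, with 65.6 CPM in DFMO B cells and 187 CPM in water B cells. Fcer1g, a signalling adaptor of Fc and natural killer receptors, had 111 CPM in DFMO and 367 CPM in water, with 60.8 CPM in DFMO B cells and 392 CPM in water B cells, and its adaptor partner Tyrobp had 46.7 CPM in DFMO and 118 CPM in water, with 142 CPM in DFMO B cells and 432 CPM in water B cells. Gclm, Fcer1g and Tyrobp were thus seen in cells of another lineage of the same library at levels of the same order, and the part of free RNA in their ratios was not tested.

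Of 30 interferon response genes tested, 0 were past 1.5-fold higher and 4 were lower in DFMO, with a median of -0.23. The shares of all genes tested were 3.34% higher and 4.13% lower. Without the 10 cells 4 of 28 were lower, with a median of -0.18, beside 2.00% lower of all genes. Without the cells with MHC class II RNA as well 2 of 28 were lower, with a median of -0.14, beside 2.01%. Ifi27l2a, the most abundant of them, had 3373 CPM in DFMO and 4781 CPM in water, a log2 ratio of -0.50 (interval -0.56 to -0.45) that was -0.64 without the 10 cells. Isg15, a ubiquitin-like modifier, had 478 CPM in DFMO and 852 CPM in water, a ratio of -0.84 (-0.57 without the 10 cells), and Bst2, which encodes tetherin, had 493 CPM in DFMO and 873 CPM in water, a ratio of -0.82 (-0.55 without them). Usp18, a brake on interferon signalling, had 43.9 CPM in DFMO and 94.5 CPM in water, a ratio of -1.11 (interval -1.61 to -0.63). Other members went the other way or lay near 0, among them Ifi213 at 0.42 and Zbp1 at 0.11. The ratios of Isg15, Bst2, Irf7 and Ifi27l2a were below 0 in all 6 other sets of cells. In B cells Isg15 had 124 CPM in DFMO and 698 CPM in water. Guanylate-binding proteins and related GTPases, which respond to interferon gamma, had a median of 0.21 over 10 genes, with 0 past 1.5-fold. Without the 10 cells 1 of 9 was past 1.5-fold higher and 0 lower, with a median of 0.38, beside 2.59% higher and 2.00% lower of all genes.

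Costimulatory receptors also went both ways. Of 12 tested, 2 were past 1.5-fold higher in DFMO and 1 lower, beside 3.34% higher and 4.13% lower of all genes tested. Tnfrsf9, which encodes 4-1BB, a receptor induced by antigen, had 815 CPM in DFMO and 1061 CPM in water, a log2 ratio of -0.38 (interval -0.50 to -0.26), and Tnfrsf18, which encodes GITR, had 455 CPM in DFMO and 570 CPM in water, a ratio of -0.33 (interval -0.49 to -0.17). Icos had 201 CPM in DFMO and 133 CPM in water, a ratio of 0.60 (interval 0.32 to 0.88) that was 0.47 without the 10 cells, and Tnfrsf1b, a receptor of tumour necrosis factor, had 131 CPM in DFMO and 80.7 CPM in water, a ratio of 0.70. Cd7 had 63.1 CPM in DFMO and 136 CPM in water, with 20.3% of the DFMO UMIs and 24.9% of the water UMIs in 1 cell. Of 23 genes of T cell receptor signalling, 2 were past 1.5-fold higher and 0 lower, beside the same shares of all genes. Their median was 0.29, and 0.14 without the 10 cells. The higher ones were Dgka at 0.77 and Cblb at 0.59, both of which restrain the signal. Without the 10 cells Cblb was at 0.44. After thinning and a new choice of members, Dgka was at -0.31 over 21 UMIs (interval -1.86 to 1.09). Among the first members after thinning, Dgka was seen in 18 of 224 in DFMO and 18 of 371 in water.

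The target of DFMO and its pathway were measured at modest levels. Odc1 (chromosome 12, 17544794 to 17551505) had 213 CPM in DFMO and 158 CPM in water, a log2 ratio of 0.43 (interval 0.17 to 0.69), and 31.3% of its 31-base stretches are shared with other genes. Of 14 genes tested in the polyamine and arginine list, 1 was past 1.5-fold higher and 1 lower, with a median of 0.05. The shares of all genes tested were 3.34% higher and 4.13% lower. Sms, which makes spermine, had 166 CPM in DFMO and 105 CPM in water, a ratio of 0.66 (interval 0.34 to 0.97), and 0.54 without the 10 cells. Mtap, which recycles the by-product of spermidine and spermine synthesis, had 45.7 CPM in DFMO and 87.6 CPM in water, a ratio of -0.94 (interval -1.43 to -0.46). Sat1, which acetylates polyamines for export, had 233 CPM in DFMO and 319 CPM in water, a ratio of -0.45 (interval -0.67 to -0.23). Oaz1, the antizyme that sends ornithine decarboxylase to degradation, had 1744 CPM in DFMO and 1533 CPM in water, and Eif5a, the protein that spermidine modifies, had 1135 CPM in DFMO and 1359 CPM in water. Neither Oaz1, at 0.19, nor Eif5a, at -0.26, reached 1.5-fold.

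Genes of glycolysis and hypoxia showed how far the 10 water cells reached. Of 23 tested over all members, 0 were past 1.5-fold higher in DFMO and 7 lower, with a median of -0.31, beside 3.34% and 4.13% of all genes tested. Without the 10 cells 1 of 22 was higher and 1 lower, with a median of -0.10, beside 2.59% and 2.00% of all genes. Ero1l and Ndrg1, both induced by hypoxia, had ratios of -1.06 and -1.32 over all members and of -0.10 and -0.27 without the 10 cells. Bnip3, another hypoxia gene, had 114 CPM in DFMO and 253 CPM in water, and its ratio of -1.14 was -0.72 without them. Gapdh had 6793 CPM in DFMO and 4860 CPM in water, a ratio of 0.48 over all members and of 0.60 without the 10 cells.

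Against the checkpoint-low CD8 cells of the same library, the members stood out by more than the receptors that defined them, and these contrasts are a description, since the rule used the same cells' counts. Of 5630 genes, 364 were at least 1.5-fold higher in members in both libraries (6.47%) and 407 at least 1.5-fold lower (7.23%). In DFMO alone 855 of 5627 were higher (15.2%) and 1072 lower (19.1%), and in water alone 583 of 5630 were higher (10.4%) and 697 lower (12.4%). The checkpoint-low cells differed between the libraries, with 404 of 484 of them carrying naive genes in DFMO and 63 of 257 in water. Upp1 (uridine phosphorylase), Gldc (glycine decarboxylase), Nrgn, Ifitm1, Igfbp7, Nrn1 and Slc17a6 were among the 15 genes with the highest ratio in both libraries, beside Gzmd, Gzme, Gzmf and Serpinb9b. Nrgn, which binds calmodulin, had 423 CPM in DFMO members and 0.863 CPM in DFMO checkpoint-low cells, and 710 CPM in water members and 68.2 CPM in water checkpoint-low cells. Ifitm1, a restriction factor of viruses, had 507 CPM in DFMO members and 0.863 CPM in DFMO checkpoint-low cells, and 593 CPM in water members and 31.8 CPM in water checkpoint-low cells. Gzmd was at 0 UMIs in the checkpoint-low cells of both libraries. Against a floor of 3 UMIs per library, its log2 ratio was at least 6.99 in DFMO and at least 5.27 in water. The 15 lowest held genes of naive and recirculating cells, among them Tcf7, Lef1, S1pr1 (the receptor for exit from lymph nodes), Il6ra, Dapl1 and Cmah. S1pr1 had 12 UMIs in DFMO members and 286 UMIs in DFMO checkpoint-low cells, a log2 ratio of CPM of -4.49, and 6 UMIs in water members and 43 UMIs in water checkpoint-low cells, a ratio of -4.12.

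By gene list, 19 of 25 genes of glycolysis and hypoxia, 10 of 17 cytotoxic genes, 8 of 19 transcription factors and 5 of 7 killer lectin-like receptors were past 1.5-fold higher in members in both libraries. Beside these stood 6.47% of all genes tested. The water members here include the 10 cells with matrix or tumour RNA, and their part in these counts and levels was not tested. Slc16a3, which exports lactate, had 83.2 CPM in DFMO members and 7.77 CPM in DFMO checkpoint-low cells, and 140 CPM in water members and 34.9 CPM in water checkpoint-low cells. Klrc1, which encodes the inhibitory receptor NKG2A, had 1105 CPM in DFMO members and 50.1 CPM in DFMO checkpoint-low cells, and 893 CPM in water members and 215 CPM in water checkpoint-low cells. Of the 31-base stretches of Klrc1, 53.1% also occur in other genes, mainly Klrc2. Of 34 interferon response genes 0 were higher and 7 lower in both libraries, and of 12 guanylate-binding and related genes 0 were higher and 6 lower. Of all genes tested, 7.23% were lower in both. The respiratory chain did not share in it: of 72 genes 0 were past 1.5-fold in both libraries in either direction.

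**Figure D3:**
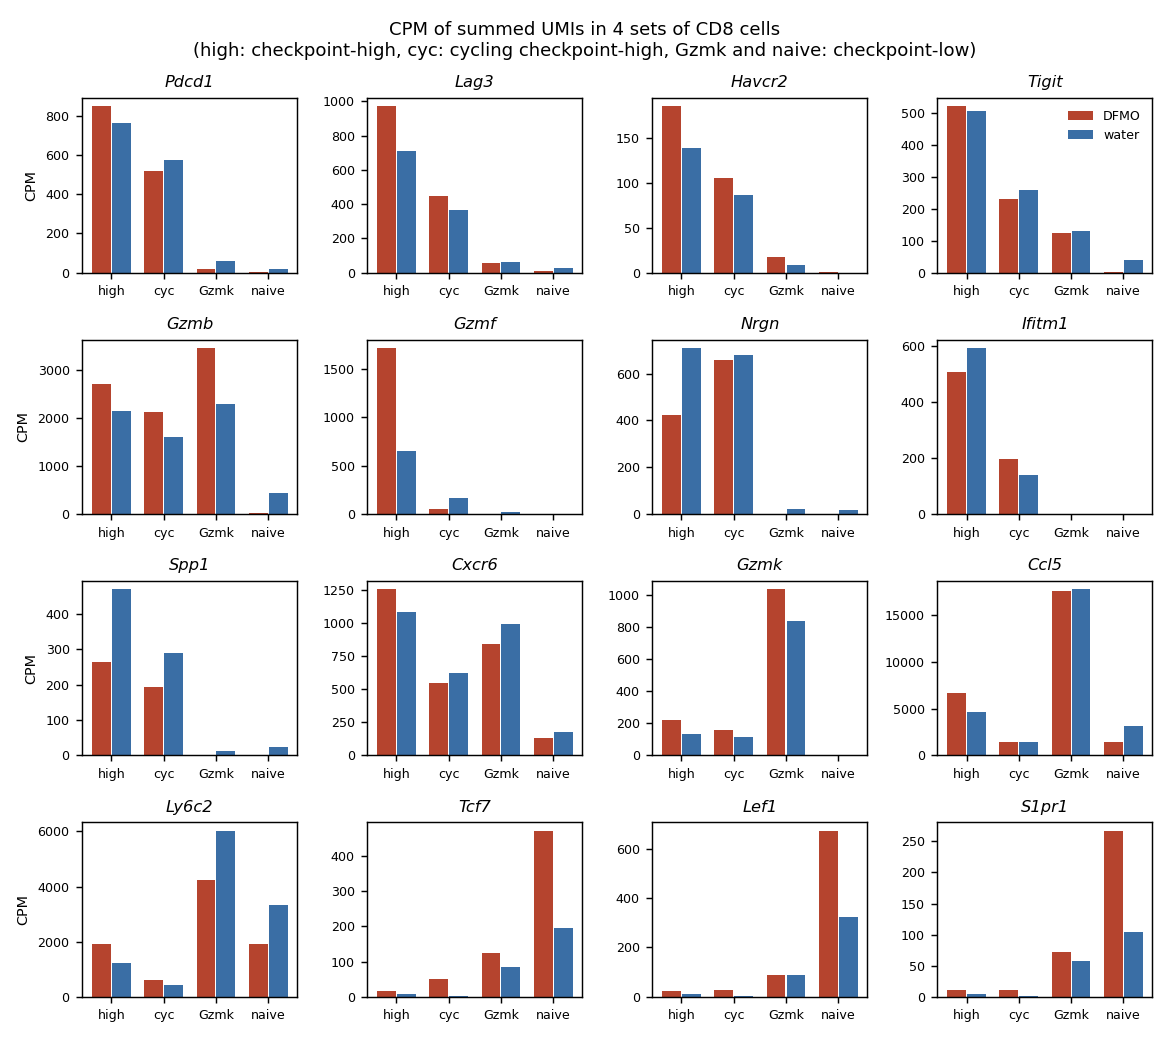
CPM of summed UMIs for 16 genes in 4 sets of CD8 cells: checkpoint-high, cycling checkpoint-high, checkpoint-low with Gzmk and checkpoint-low with naive genes, each with a bar for DFMO (red) and for water (blue), on linear axes of their own. Nrgn and Ifitm1 are seen in both checkpoint-high sets, Ccl5 is highest in the Gzmk set with 17498 CPM in DFMO and 17715 CPM in water, and Tcf7, Lef1 and S1pr1 are highest in the naive set.

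Cycling checkpoint-high cells had lower levels of Tigit and Gzmf than the members in both libraries. Tigit had 230 CPM in cycling DFMO cells and 259 CPM in cycling water cells, against 520 CPM in DFMO members and 506 CPM in water members. Gzmf had 50.7 CPM in cycling DFMO cells and 162 CPM in cycling water cells, so that the order of the libraries was the reverse of that in members. Gzmc had 1406 CPM in cycling DFMO cells and 552 CPM in cycling water cells.

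Within the members, levels differed between classes of checkpoint UMIs, which the rule used and which also differed in depth. Members with 10 or more checkpoint UMIs, 99 cells in DFMO and 90 in water, had median depths of 5103 UMIs in DFMO and 4736 in water. Members with 2 or 3, which were 35 in DFMO and 107 in water, had 3260 in DFMO and 2864 in water. Prf1 had 1438 CPM in the class of 10 or more and 231 CPM in the class of 2 or 3 in DFMO, and 1468 CPM and 346 CPM in water. Ccl3 had 2261 CPM in the class of 10 or more and 342 CPM in the class of 2 or 3 in DFMO, and 1988 CPM and 562 CPM in water. Ly6c2, a surface protein of memory and effector cells, ran the other way, with 1419 CPM in the class of 10 or more and 2826 CPM in the class of 2 or 3 in DFMO, and 811 CPM and 1555 CPM in water. Slamf6 had 5.10 CPM in the class of 10 or more and 175 CPM in the class of 2 or 3 in DFMO, and 0 UMIs and 16.2 CPM in water.

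The T cell receptor genes, which the rule did not use, were unevenly spread among the members. Each cell was assigned its leading beta variable segment, the one with most UMIs, and 217 DFMO members and 345 water members had one. Trbv12-1 (chromosome 6, 41113550 to 41114067) led in 71 DFMO members (32.7%, interval 26.5 to 39.4) and 123 water members (35.7%, interval 30.6 to 41.0). It led in 46 of 462 checkpoint-low cells in DFMO (9.96%, interval 7.38 to 13.1) and 18 of 233 in water (7.73%, interval 4.64 to 11.9). The intervals of members and checkpoint-low cells did not overlap in either library, and those of DFMO members and water members did. After thinning and a new choice of members, the shares were 35.9% of DFMO members (interval 26.1 to 46.5) and 35.0% of water members (interval 27.6 to 43.0), and 11.1% of DFMO checkpoint-low cells (interval 8.36 to 14.4) and 22.5% of water checkpoint-low cells (interval 17.9 to 27.7). The intervals of members and checkpoint-low cells then overlapped narrowly in water and not in DFMO. Cycling checkpoint-high cells had it in 22 of 56 cells in DFMO (39.3%) and 46 of 110 in water (41.8%). Other segments differed between the libraries: Trbv19 led in 31 DFMO members (14.3%) and 5 water members (1.45%), Trbv4 in 1 DFMO member (0.461%) and 25 water members (7.25%), and Trbv3 in 5 DFMO members (2.30%) and 31 water members (8.99%). The files do not tie cells to mice, so a segment carried by many cells of 1 mouse cannot be told apart from one shared by several.

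**Figure D4:**
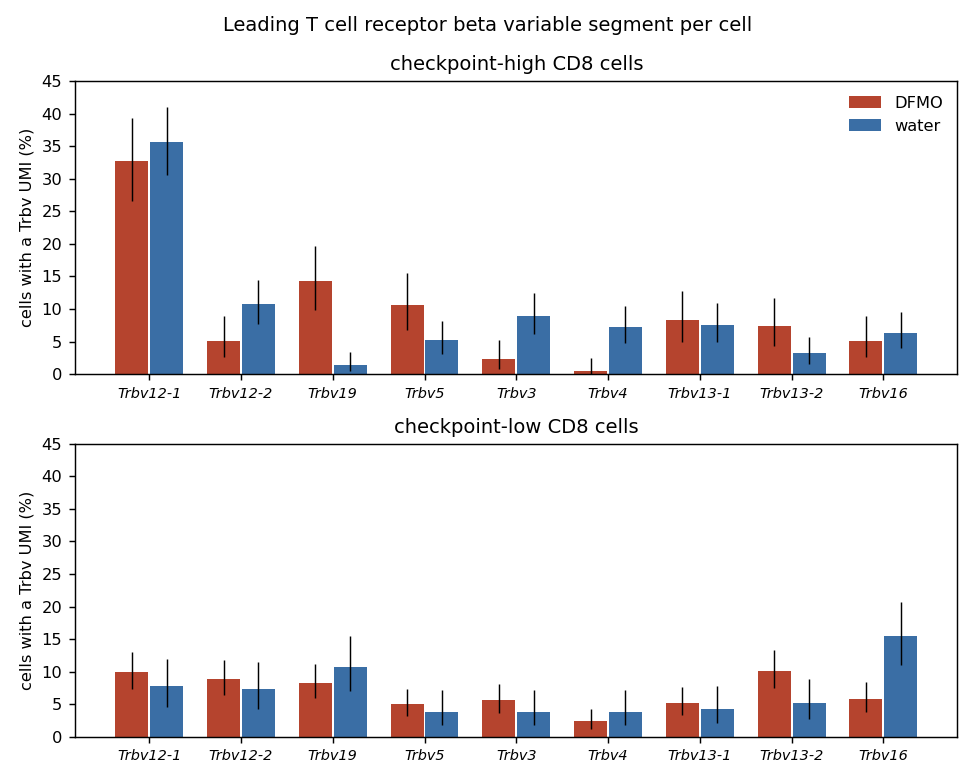
Share of cells (%) led by each of 9 beta variable segments, among cells with a Trbv UMI, for checkpoint-high cells (top) and checkpoint-low cells (bottom) of the DFMO library (red) and the water library (blue), with 95% binomial intervals. Trbv12-1 leads in 32.7% of DFMO members and 35.7% of water members, and in 9.96% of DFMO and 7.73% of water checkpoint-low cells.

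Alpha segments showed a like concentration, with different leading partners in the 2 libraries. Trav16, Trav16n and Trav16d-dv11, near-copies on chromosome 14, together led in 46 of 195 DFMO members with an alpha segment (23.6%, interval 17.8 to 30.2) and 158 of 309 water members (51.1%, interval 45.4 to 56.8). They led in 27 of 367 checkpoint-low cells in DFMO (7.36%) and 23 of 172 in water (13.4%). After thinning and a new choice of members, they led in 33.3% of DFMO members (interval 23.4 to 44.5) and 42.0% of water members (interval 33.0 to 51.4), and in 31 of 330 DFMO checkpoint-low cells (interval 6.47 to 13.1) and 64 of 213 water checkpoint-low cells (interval 24.0 to 36.7), with intervals that overlapped in water and not in DFMO. Among the members led by Trbv12-1 that had an alpha segment, one of these 3 led in 29 of 70 in DFMO (41.4%) and 109 of 120 in water (90.8%). The leading call leaves out cells where such a segment came behind another. Trav16 led in 29 DFMO members and 102 water members, but had a UMI in 67 DFMO members and 110 water members. The commonest pair in DFMO was Trbv12-1 with Trav14d-3-dv8, in 36 of 190 members with both chains (18.9%, interval 13.6 to 25.3), and Trav14d-3-dv8 led in 1 water member. The commonest in water were Trbv12-1 with Trav16, in 71 of 288 members (24.7%), and with Trav16n, in 38 (13.2%). In DFMO, Trbv12-1 was paired with Trav16 in 17 members and with Trav16d-dv11 in 11. Among the checkpoint-low cells led by Trbv12-1 that had an alpha segment, one of the 3 led in 3 of 38 in DFMO and 10 of 15 in water.

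The sequences of these segments are shown because near-copies share reads. Each is the end of the segment's last coding exon, cut to the same length within a family, on the plus strand of GRCm38 (mm10) from GENCODE M21. Capitals mark bases that differ within a family. Trbv12-1 lies at chr6:41113775-41114067 and its neighbour Trbv12-2 at chr6:41119072-41119364, and they differ at 32 of 293 bases (89.1% identity).
Trbv12-1: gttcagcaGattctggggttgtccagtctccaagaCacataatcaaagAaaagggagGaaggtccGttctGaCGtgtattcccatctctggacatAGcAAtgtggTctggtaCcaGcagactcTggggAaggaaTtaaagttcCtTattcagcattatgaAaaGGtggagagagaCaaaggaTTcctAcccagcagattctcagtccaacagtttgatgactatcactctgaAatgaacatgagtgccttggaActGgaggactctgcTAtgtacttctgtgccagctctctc
Trbv12-2: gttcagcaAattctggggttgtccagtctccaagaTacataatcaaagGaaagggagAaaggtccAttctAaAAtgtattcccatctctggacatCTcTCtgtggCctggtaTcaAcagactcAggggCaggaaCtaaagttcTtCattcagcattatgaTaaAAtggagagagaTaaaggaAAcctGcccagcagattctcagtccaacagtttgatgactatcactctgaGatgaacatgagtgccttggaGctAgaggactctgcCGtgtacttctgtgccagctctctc
The alpha segments lie at chr14:53743406-53743705 (Trav16), chr14:53351322-53351621 (Trav16n) and chr14:53047522-53047821 (Trav16d-dv11). Trav16 and Trav16n differ at 4 of 300 bases, Trav16 and Trav16d-dv11 at 5, and Trav16n and Trav16d-dv11 at 3.
Trav16: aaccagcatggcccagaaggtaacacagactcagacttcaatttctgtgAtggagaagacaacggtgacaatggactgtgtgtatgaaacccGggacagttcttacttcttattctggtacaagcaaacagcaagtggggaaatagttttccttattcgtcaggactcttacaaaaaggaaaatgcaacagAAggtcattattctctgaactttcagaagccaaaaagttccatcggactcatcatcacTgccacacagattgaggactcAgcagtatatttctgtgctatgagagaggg
Trav16n: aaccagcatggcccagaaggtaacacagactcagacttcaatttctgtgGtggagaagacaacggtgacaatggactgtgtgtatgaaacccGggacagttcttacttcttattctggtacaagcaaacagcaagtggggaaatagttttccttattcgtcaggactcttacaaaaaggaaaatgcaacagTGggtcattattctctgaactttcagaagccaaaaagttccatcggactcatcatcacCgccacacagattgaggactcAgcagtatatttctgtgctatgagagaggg
Trav16d-dv11: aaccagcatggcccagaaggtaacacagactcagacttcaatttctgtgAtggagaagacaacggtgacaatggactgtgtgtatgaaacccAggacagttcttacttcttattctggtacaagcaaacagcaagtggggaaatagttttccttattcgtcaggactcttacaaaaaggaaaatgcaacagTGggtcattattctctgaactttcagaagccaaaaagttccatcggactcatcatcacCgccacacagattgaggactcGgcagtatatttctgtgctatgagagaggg
Of the 31-base stretches of Trav16 transcripts, 67.2% also occur in other genes, so reads of these segments can be counted for one another, and the split among the 3 is uncertain. For Trbv12-1 this share was 3.90%, and its count is less exposed. Trav14d-3-dv8 shares 65.0%, mainly with Trav14n-3, and Trbv5 and Trbv4 share 78.7% and 73.6%, mainly with 5830405F06Rik.

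Members led by Trbv12-1 differed from the other members with a beta segment, at median depths of 4351 UMIs against 4392.5 in DFMO and 4147 UMIs against 3327.5 in water. In both libraries they had less Ly6c2, at 553 CPM against 2639 CPM in DFMO and 614 CPM against 1545 CPM in water. They also had less Gzmk, with log2 ratios of -1.69 (interval -2.27 to -1.16) in DFMO and -1.68 (interval -2.27 to -1.14) in water, and less Gzmb, at -0.77 in DFMO and -0.85 in water. Gzma had 1 UMI in Trbv12-1 cells against 81 in the others in DFMO, and 2 UMIs against 239 in water, log2 ratios of -5.38 (interval -10.70 to -2.86) in DFMO and -6.14 (interval -9.20 to -4.28) in water. These ratios rest on few cells. Gzma was seen in 5 DFMO members and 9 water members, and 1 cell held 76.8% of its UMIs in DFMO and 49.0% in water. Higher in Trbv12-1 cells of both libraries were Gldc, at 1.82 in DFMO and 1.45 in water, Ifitm1, at 0.64 in DFMO and 2.07 in water, Nrgn, at 0.55 in DFMO and 1.08 in water, and Ccl1, at 2.06 in DFMO and 1.95 in water. Tox was higher in them by 0.43 in DFMO (interval 0.05 to 0.81) and by 0.52 in water (interval 0.12 to 0.91). Water cells with matrix or tumour RNA were not left out of the ratios by leading segment, and their part in them was not tested.

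Other genes went opposite ways. Gzmf had 634 CPM in Trbv12-1 cells against 2335 CPM in other members in DFMO, a log2 ratio of -1.88 (interval -2.09 to -1.68), and 1184 CPM against 382 CPM in water, a ratio of 1.63 (interval 1.45 to 1.82). Gzmc followed, at -4.00 in DFMO and 1.41 in water, as did Fcer1g at -1.56 in DFMO and 0.61 in water and Spp1 at -0.37 in DFMO (interval -0.75 to 0.01) and 2.04 in water (interval 1.80 to 2.27). For Gzmf, 1 cell held 43.4% of the DFMO members' UMIs. The difference between the libraries was not tested, since cells of 1 library are not replicates.

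**Figure D5:**
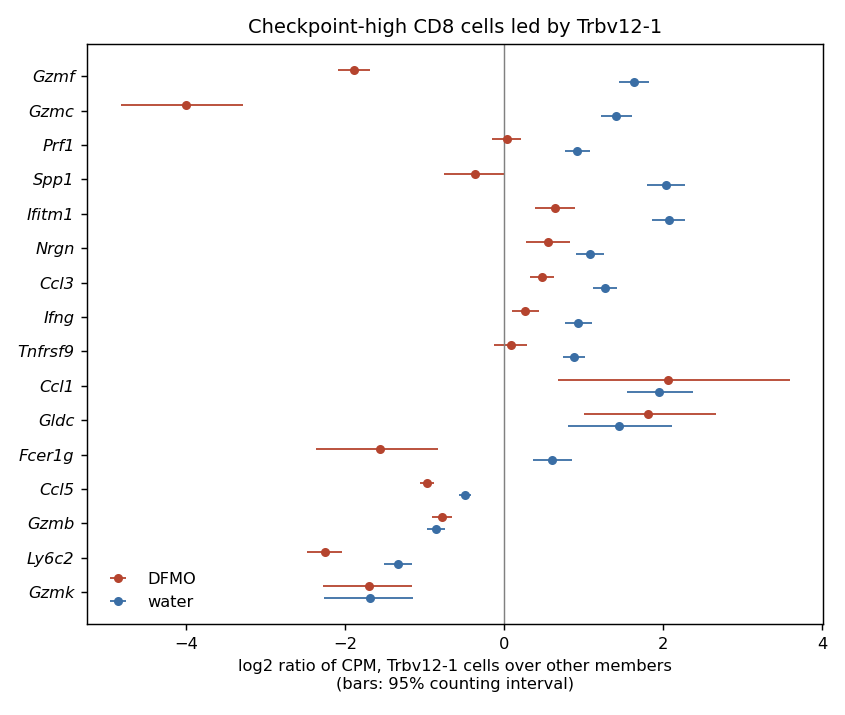
Log2 ratio of CPM in members led by Trbv12-1 over the other members with a beta segment, for 16 genes in DFMO (red, 71 cells against 146) and water (blue, 123 cells against 222), with bars for the 95% counting interval. Ccl5, Gzmb, Ly6c2 and Gzmk lie left of 0 in both libraries, and Gzmf, Gzmc and Fcer1g lie on opposite sides.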

How the data were processed

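The counts analysed are raw UMI counts per gene and cell, which the authors deposited as 1 sparse matrix (10720 cells, 17775 genes) beside a table that names each cell's group. Per the submitters' processing notes, Cell Ranger 3.02 and Scanpy 1.4.4 were used with the build mm10, while the cell filters that the authors applied are not stated in those notes. All deposited cells were used. No ambient RNA was removed and no doublets were removed in the main values. Scrublet (scanpy 1.11.5, assumed rate 5%) called 51 DFMO cells (1.14%) and 97 water cells (1.55%), of which 0 and 4 were members.

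UMIs were summed over the cells of a set in each library and divided by the set's total to give CPM with exact Poisson intervals. The log2 ratio had an exact conditional binomial interval, and shares had Clopper-Pearson intervals, all at 95%. Genes tested needed at least 100 UMIs over both libraries, and T cell receptor and immunoglobulin segments were left out. Genes named by rank also needed at least 50 CPM in 1 library. Past the fold meant 1.5-fold or more, and a count of 0 was set to a floor of 3 UMIs per library where the other count was above 3. UMI counts were not merged over near-identical genes. On simulated Poisson counts for the DFMO over water comparison, 95.8% of intervals over 3947 genes held the true ratio. Such counts have only the error that the interval assumes. The simulation therefore checks the calculation, and not how the intervals fare where few cells hold most UMIs of a gene. Groups had 1 library each, of cells pooled from 4 mice, so no test was made and no replicate number exists.

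B cells had 2 or more Cd79a UMIs and myeloid cells 10 or more Lyz2 UMIs. Checkpoint-low cells were gate cells under 2 checkpoint UMIs, split first into those with a Gzmk UMI and then by 2 or more UMIs of naive genes. Leading segments were those with most UMIs in a cell. The members, gene lists and tests were chosen with earlier results of these data known. Genes were named as the 15 with the highest lower bound and the 15 with the lowest upper bound of the interval of the DFMO over water ratio, by a like rule against checkpoint-low cells, as members of the lists, and as beta segments leading in at least 5% of cells. Sequences and coordinates came from GENCODE M21, which matched 17743 gene identifiers. The alternatives were thinning to 1000 UMIs, at least 4 checkpoint UMIs, no cell cycle UMIs, other gene and cell filters, TMM library sizes (edgeR 4.0.16, R 4.3.3), totals without receptor segments and equal weight per cell. Another 3 were added after the data were seen: leaving out cells with 5 or more UMIs of 6 tumour or matrix markers, also those with class II UMIs, and the top cell of each gene. Ratios, counts and segment shares after thinning used members chosen anew, 128 in DFMO and 206 in water. Shares of members with a UMI of a gene after thinning kept the first members. Python 3.11.15, numpy 2.4.6, scipy 1.17.1 and pandas 2.3.3 were used. Results for some genes are not reported here.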

Additional observations from a re-analysis of the deposited data

Results flagged for a closer look

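Of 479 listed genes compared between checkpoint-high and checkpoint-low CD8 cells, 7 were past 1.5-fold in opposite directions in the libraries (1.46%), beside 48 of all 5630 genes tested (0.853%), and the difference between the libraries was not tested. The log2 ratio of checkpoint-high over checkpoint-low cells was 1.23 in DFMO (interval 1.17 to 1.29) and -1.10 in water (interval -1.15 to -1.06) for Ccl5, a chemokine of memory and effector cells, and 2.16 in DFMO (interval 1.74 to 2.60) and -1.10 in water (interval -1.39 to -0.81) for Gzmk. It was 1.08 in DFMO (interval -0.15 to 2.42) and -1.48 in water (interval -2.05 to -0.92) for Ccr2, a chemokine receptor, and 1.72 in DFMO (interval 0.91 to 2.61) and -0.59 in water (interval -1.21 to 0.05) for Cd83, an activation marker. It was 1.01 in DFMO (interval 0.22 to 1.85) and -0.63 in water (interval -1.18 to -0.06) for Cks1b, a cell cycle gene. It was 0.67 in DFMO (interval -0.0066 to 1.36) and -0.77 in water (interval -1.23 to -0.30) for Oas1a, an interferon-induced enzyme, and 0.61 in DFMO (interval -0.13 to 1.38) and -0.59 in water (interval -1.26 to 0.11) for Xiap, an inhibitor of caspases. For 4 of the 7, Ccr2, Cd83, Oas1a and Xiap, the interval held 0 in at least 1 library. Of the checkpoint-low cells, 404 of 484 in DFMO and 63 of 257 in water carried naive genes, without Gzmk, and 18 in DFMO and 91 in water carried Gzmk. The part of that make-up in these ratios was not tested.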

How the results depend on the processing

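No paired analysis was possible because DFMO and water had 1 library each, and no replicate could be left out. Leaving out Scrublet calls, cells under 500 genes or cells with Cd4 or Foxp3 UMIs, TMM library sizes, and totals without receptor segments kept every share, count and list median within its limits. Other settings moved list medians of DFMO over water. Thinning moved 13 of them and left 6, and leaving out the tumour or matrix cells moved 11 and left 12. With every cell weighted equally 7 list medians moved and 16 did not. That setting also took 50 gene ratios out of their main interval and left 80 inside. Thinned to 1000 UMIs per cell, the share of gate cells that met the rule was 19.5% in DFMO and 34.9% in water. Of only 538 genes that then had enough UMIs, 15 were higher and 27 lower in DFMO. Out of 2128 genes, 335 were higher and 399 lower in members than in checkpoint-low cells in DFMO, and 143 higher and 212 lower in water. With at least 4 checkpoint UMIs the shares were 26.8% in DFMO and 42.2% in water, with 86 of 3297 genes higher and 92 lower in DFMO. With no cell cycle UMIs the DFMO share was 26.6%, with 81 of 3000 genes higher and 104 lower. With a minimum of 30 UMIs per gene, 544 of 7438 genes were higher and 587 lower in DFMO. Against checkpoint-low cells the counts out of 8817 genes were 1579 and 2084 in DFMO and 1216 and 1531 in water. With a minimum of 300 UMIs, 29 of 1523 genes were higher and 45 lower in DFMO. Against checkpoint-low cells the counts out of 2541 genes were 392 and 362 in DFMO and 220 and 201 in water. Genes lower in DFMO numbered 74 of 3707 without the tumour or matrix cells and 73 of 3630 also without class II cells.

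Signs turned as follows, in log2 of DFMO over water; the cause was not tested. Thinned, with members chosen anew, they were Cd5 -0.16, Cd63 0.36, Dgka -0.31, Gzma 0.84, Gzmd -0.90, H2-Aa -1.48, H2-Eb1 -1.90, Ifit1 0.99, Il7r -1.19, Ndrg1 0.27, Pdcd1 -0.036, Zfp683 -1.31 and Zgpat -0.033. Of these, only the interval of Ifit1 (0.11 to 1.90) left out 0, and some rested on few UMIs, such as Ndrg1 on 7 and Cd63 on 9. With at least 4 checkpoint UMIs Pdcd1 was -0.049 and Tcf7 -0.051, and with no cell cycle UMIs Gzma was 0.30 and Gzmc 0.25. Without tumour or matrix cells Cd34 was 0.19, Cd63 1.18, Ecm1 0.19, Klrd1 -0.018 and Ly6c1 0.61. Also without class II cells Cd34 was 0.19, Cd63 1.49, Ecm1 0.16, H2-Aa -0.20, H2-Ab1 -1.67, H2-Eb1 -0.20, Klrd1 -0.046, Ly6c1 0.61 and Pdcd1 -0.0098. The class II cells were chosen by H2-Aa, H2-Ab1 and H2-Eb1, so a fall of these genes follows from that choice. Without the highest cell of each gene H2-Aa was -1.58, H2-Ab1 -1.94 and H2-Eb1 -1.83. At 225 and 373 cells, genes under 100 UMIs were not ranked.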

Other observations

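Housekeeping lists held few genes past 1.5-fold, beside 3.34% higher and 4.13% lower of all genes tested. Most of their medians lay below the all-gene median of -0.0048. Lower in DFMO by any amount were 20 of 29 constitutive proteasome genes, 18 of 22 MYC and ribosome biogenesis genes and 49 of 71 respiratory chain genes. The same held for 11 of 16 heat shock chaperones, 10 of 20 cell cycle genes and 1991 of all 3927 genes. In DFMO over water, 0 of 29 genes of the constitutive proteasome, 0 of 22 genes of MYC and ribosome biogenesis, 0 of 16 heat shock chaperones and 0 of 20 cell cycle genes outside the rule were past 1.5-fold in either direction, with medians of -0.12, -0.18, -0.09 and -0.0011. Of 71 respiratory chain genes 1 was higher and 0 lower, with a median of -0.09, and the higher one was Atp5k, a subunit of ATP synthase, with 215 CPM in DFMO and 133 CPM in water. Of 21 MHC class I genes 1 was higher and 0 lower, and H2-K1 had 5315 CPM in DFMO and 5113 CPM in water. Fos, an immediate early gene, had 1017 CPM in DFMO and 952 CPM in water. Bcl2a1b, a survival gene, had 509 CPM in DFMO and 331 CPM in water, a log2 ratio of 0.62 that was 0.50 without the 10 cells with tumour or matrix RNA. Of the 31-base stretches of Bcl2a1b, 88.8% also occur in other genes, mainly Bcl2a1d.

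The Y-linked gene Eif2s3y was higher in DFMO members, with 125 CPM in DFMO and 70.1 CPM in water, a log2 ratio of 0.84 (interval 0.47 to 1.21), and lay between 0.30 and 1.55 in the other 6 sets of cells. Ddx3y, also Y-linked, had 53.1 CPM in DFMO and 28.8 CPM in water, a ratio of 0.88 (interval 0.30 to 1.47), and was higher in 4 of the other 6 sets, over a range of -1.29 to 0.59. Xist, the RNA of the inactive X chromosome, had 0 UMIs in the members of both libraries.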
